A study of Mus musculus with 4 samples.

Results

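Expression was described for 9 genes of the interferon system, 4 transcription factors and 5 nucleic acid sensors, of 19938 genes measured. They were taken from a list of names: Stat2, Irf1, Irf7, Irf9, Zbp1, Ddx58, Ifih1, Dhx58 and Ddx60. The list was chosen with earlier results of these data known. Each gene's level is that of its probe set with 1 gene symbol and the highest mean over the arrays. All 9 had such a probe set, and Irf1 had a second one.

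Interferons are secreted proteins that warn cells of viral nucleic acid. Sensors in the cytosol bind foreign RNA or DNA and, through adaptor proteins, lead to interferon production. Interferon binds its receptors, and a complex that includes STAT2 and IRF9 enters the nucleus and switches on interferon-stimulated genes, among them most of the sensors and IRF7. In the gut epithelium these genes are known to be held at a basal level, and the microbiota and intraepithelial lymphocytes are known to influence them.

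The arrays measured RNA of small intestinal crypt cells of adult mice, sorted by flow cytometry on an EGFP reporter in the stem cell gene Lgr5. Zip7 KO mice were Zip7flox/flox with villin-CreERT2 and Lgr5-EGFP-ires-CreERT2, and control mice were Zip7flox/+ with the same 2 drivers. Villin drives Cre in the intestinal epithelium, and all mice received tamoxifen for 2 days. The fraction not labelled Lgr5-Hi is called Lgr5-Mid in titles and Lgr5-Med in source names. The 4 groups were Zip7 KO labelled Lgr5-Hi, Zip7 KO labelled Lgr5-Med, control labelled Lgr5-Hi and control labelled Lgr5-Med, with 1 array each. The controls carry 1 floxed copy under the same drivers, so no group is without Cre or tamoxifen. The labels do not say how many mice stand behind an array or whether both fractions of a genotype came from the same mice. With 1 array a group there is no spread between replicates: nothing below was tested, no p-value was computed, and every difference is a description of these arrays.

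Several facts of the whole series touch the values below. The targeted gene, Slc39a7 (the gene of ZIP7), stood at 9.02 in Zip7 KO against 8.92 in control under Lgr5-Hi and at 8.22 against 8.61 under Lgr5-Med, on the log2 scale of the deposited values. The labels do not give the floxed exons or the place of the probes, so these values do not check the genotype labels. Lgr5 itself ran against the fraction labels, at 7.93 and 11.24 in the Zip7 KO arrays labelled Lgr5-Hi and Lgr5-Med and at 7.79 and 10.97 in the control arrays with these labels. Xist, which silences an X chromosome in female cells, stood at 5.59 and 5.43 in Zip7 KO and at 11.64 and 11.84 in control, and the Y-linked gene Eif2s3y at 8.12 and 8.11 in Zip7 KO and at 4.10 and 4.24 in control. Genotype and sex of the mice therefore cannot be told apart in these arrays. The epithelial markers were well detected, with 10 of 10 above the expression floor on all 4 arrays. That floor, percentile 95 of 1203 odorant, pheromone and trace amine receptor genes that serve as a background, lay between 6.10 and 6.25 on the 4 arrays.

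The members are genes that interferon is known to induce, and 2 DNA motifs are known for this. The interferon-stimulated response element is bound by the complex that includes STAT2 and IRF9 and by other IRF proteins, and the gamma-activated site is known from genes induced by interferon-gamma. The 300 bases around each gene's start, 250 before it and 50 after, were searched on both strands for GAAANNGAA, a core of the response element, and for TTCNNNGAA, the gamma-activated site, which reads the same on both strands. RefSeq windows of the build GRCm38.p6 were at hand for 7 of the 9 members (9 windows, since Irf1 and Irf9 have 2 each). Zbp1 and Dhx58 had no entry. The response element core was in the windows of 4 members, Stat2, Ddx58, Ifih1 and Ddx60, and in 8.56% of all 32851 mouse windows. The gamma-activated site was in 1 of the 2 Irf1 windows, and in 8.3% of all windows. The motifs overlapped each other in 54 windows of the whole table. The 5 member windows with a match are printed from 5′ to 3′ on the gene's strand, with the matches in capitals, because they show how differently the motif is placed in genes that differed in the same direction. Ddx60 lies at chr8:61927837-61928136 (+ strand), Ifih1 at chr2:62646206-62646505 (- strand), Stat2 at chr10:128270248-128270547 (+ strand), Ddx58 at chr4:40239776-40240075 (- strand) and the Irf1 window at chr11:53769764-53770063 (+ strand).
Ddx60: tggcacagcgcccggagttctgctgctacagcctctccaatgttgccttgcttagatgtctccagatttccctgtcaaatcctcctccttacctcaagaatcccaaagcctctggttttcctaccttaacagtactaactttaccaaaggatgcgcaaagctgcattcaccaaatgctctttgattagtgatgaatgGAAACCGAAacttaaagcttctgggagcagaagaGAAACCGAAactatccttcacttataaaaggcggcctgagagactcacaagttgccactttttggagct
Ifih1: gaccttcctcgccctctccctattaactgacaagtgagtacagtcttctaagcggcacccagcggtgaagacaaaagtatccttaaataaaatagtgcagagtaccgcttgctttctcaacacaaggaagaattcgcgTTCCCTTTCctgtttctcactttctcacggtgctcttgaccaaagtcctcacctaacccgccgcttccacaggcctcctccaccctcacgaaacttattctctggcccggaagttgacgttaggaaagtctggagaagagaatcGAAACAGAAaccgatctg
Stat2: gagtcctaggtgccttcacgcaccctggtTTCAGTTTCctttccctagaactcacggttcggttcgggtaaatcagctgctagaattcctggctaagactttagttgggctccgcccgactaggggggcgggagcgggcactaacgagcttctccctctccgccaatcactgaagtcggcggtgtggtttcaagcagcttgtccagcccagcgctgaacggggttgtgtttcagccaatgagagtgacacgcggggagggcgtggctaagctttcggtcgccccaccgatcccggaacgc
Ddx58: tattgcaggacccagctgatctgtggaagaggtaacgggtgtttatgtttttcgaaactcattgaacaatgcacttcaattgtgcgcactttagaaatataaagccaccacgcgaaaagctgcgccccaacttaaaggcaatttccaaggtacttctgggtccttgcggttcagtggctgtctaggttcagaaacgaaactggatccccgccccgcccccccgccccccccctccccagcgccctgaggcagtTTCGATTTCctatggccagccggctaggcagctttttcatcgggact
Irf1: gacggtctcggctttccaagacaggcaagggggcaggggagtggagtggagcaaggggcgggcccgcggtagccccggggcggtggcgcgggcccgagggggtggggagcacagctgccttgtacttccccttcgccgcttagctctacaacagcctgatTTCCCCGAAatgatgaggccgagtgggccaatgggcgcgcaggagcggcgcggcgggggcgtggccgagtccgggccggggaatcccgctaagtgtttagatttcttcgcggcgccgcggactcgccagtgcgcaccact

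Ddx60 held the core 2 times on its own strand, with first bases 53 and 19 bases before the gene's start. At least 2 cores were found in only 0.624% of all windows. Ifih1 also held 2, one on the opposite strand 112 bases before the start and one on its own strand 32 bases after it. The single core of Stat2 lay 221 bases before the start and that of Ddx58 at 3 bases after it, both on the opposite strand. The Irf1 site lay 90 bases before the start. Irf7 and Irf9 had neither motif in their windows, which says only that these letters are not in those bases. A match is a description of sequence, not evidence of binding.

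The first question was how Zip7 KO and control cells differed. All 9 genes were lower in Zip7 KO under both fraction labels. Of all genes compared, 45.0% were lower under Lgr5-Hi and 55.8% under Lgr5-Med. For all 9, both Zip7 KO values lay below both control values, a pattern that 15.9% of the 12426 genes above the floor on any array also showed. Under Lgr5-Hi the differences lay between -1.42 and -0.44 with a median of -0.96, and over all 12017 genes compared the median was 0.02. Under Lgr5-Med they lay between -1.84 and -0.56 with a median of -1.14, and over all 12257 genes the median was -0.03. Genes at or below the floor on both arrays of a comparison were left out of it, and no member was. All 9 were above the floor on both control arrays, and 8 of them on all 4 arrays.

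At least 2-fold lower (a difference of -1 or below on the log2 scale) were 4 members under Lgr5-Hi, where 0.233% of all genes were, and 5 under Lgr5-Med, where 0.62% of all genes were. The 4 were Zbp1, Ddx60, Dhx58 and Irf7, and Stat2 joined them under Lgr5-Med. These 4 were also among the 26 genes that were at least 2-fold lower under both labels, which is 0.219% of the 11848 genes compared in both. No member was at least 2-fold higher, against 0.25% of all genes under Lgr5-Hi and 0.0653% under Lgr5-Med. One of the 4, Ddx60, was below the floor in Zip7 KO, and with the floor in its place 3 members passed 2-fold under Lgr5-Hi. Bulk RNA of sorted cells cannot tell fewer cells that express a gene from less RNA of it per cell.

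**Figure D1:**
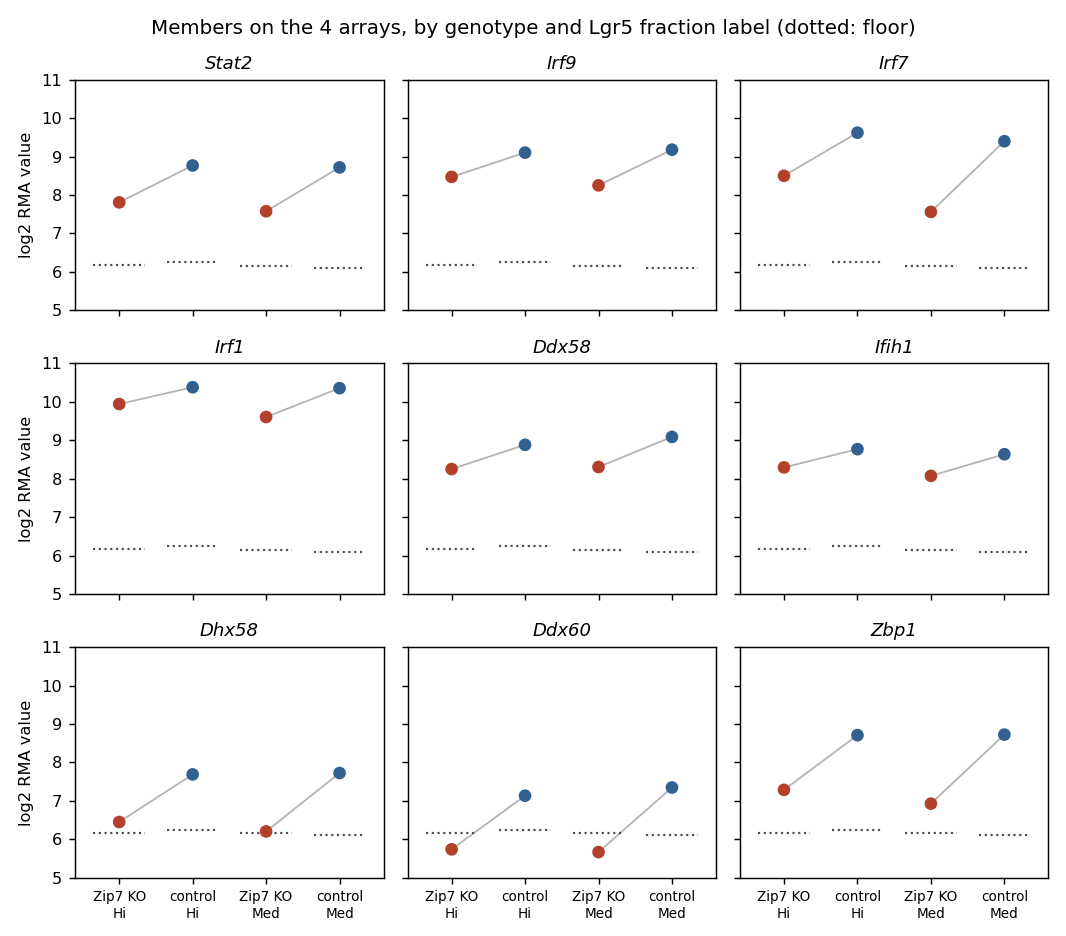
Log2 RMA value (vertical axis) of each of the 9 genes on the 4 arrays (horizontal axis), 1 point per array, with Zip7 KO in red to the left of control in blue within each fraction label. Dotted lines mark the expression floor of each array, and both red points lie below both blue points in all 9 panels, with Ddx60 under the floor in Zip7 KO.

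The transcription factors are described first. STAT2 is the part of the type I and type III interferon complex that carries its activation domain. Its gene was at 7.81 and 7.58 in the Zip7 KO arrays labelled Lgr5-Hi and Lgr5-Med, against 8.77 and 8.72 in the control arrays with these labels. The differences were -0.96 and -1.14, or 1.94-fold and 2.21-fold lower. The control values of Stat2 were almost alike, and the Zip7 KO values differed by 0.23 between the fraction labels. Both were smaller than the differences between Zip7 KO and control arrays.

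IRF9 is the DNA-binding part of the same complex. Irf9 was at 8.47 and 8.25 in Zip7 KO, against 9.10 and 9.18 in control. Its differences of -0.63 and -0.93 were 1.55-fold and 1.9-fold and did not reach 2-fold under either label. Stat2 and Irf9 were thus both lower in both fractions.

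IRF7 amplifies interferon-alpha production and is itself induced by interferon. Irf7 was at 8.50 and 7.56 in Zip7 KO, against 9.62 and 9.40 in control. It was lower by a difference of -1.12 (2.17-fold) under Lgr5-Hi and -1.84 (3.58-fold) under Lgr5-Med. Under Lgr5-Med it ranked 10 from the lowest of 12257 genes, and 24 of 12017 under Lgr5-Hi. The Zip7 KO arrays differed from each other more in Irf7 than in any other member, by 0.94, whereas the control arrays differed by 0.22.

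IRF1 acts mainly downstream of interferon-gamma and keeps a basal expression of antiviral and antigen presentation genes in epithelial cells. Irf1 was at 9.94 and 9.61 in Zip7 KO, against 10.38 and 10.36 in control. The differences were -0.44 and -0.75, or 1.35-fold and 1.68-fold. A second, dimmer Irf1 probe set stood at 6.54 and 6.64 in Zip7 KO, against 6.80 and 6.85 in control. Its differences of -0.25 and -0.21 had the same direction and were smaller, and the mean of both probe sets gave -0.48 under Lgr5-Med.

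The sensors of the RIG-I family are RNA helicases. DDX58 (RIG-I) binds short double-stranded RNA with a triphosphate end. Ddx58 was at 8.25 and 8.30 in Zip7 KO, against 8.88 and 9.09 in control, with differences of -0.63 (1.55-fold) and -0.78 (1.72-fold). It was the only member whose lowest value was in the Zip7 KO array labelled Lgr5-Hi.

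IFIH1 (MDA5) binds long double-stranded RNA. Ifih1 was at 8.30 and 8.07 in Zip7 KO, against 8.77 and 8.64 in control. Its differences of -0.47 (1.39-fold) and -0.56 (1.48-fold) made it the member that differed least under Lgr5-Med.

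DHX58 (LGP2) lacks the signalling domains of the other family members and modulates their action. Dhx58 was at 6.45 and 6.20 in Zip7 KO, against 7.69 and 7.72 in control. The differences were -1.24 (2.36-fold) and -1.52 (2.87-fold). Both Zip7 KO values were only slightly above the floors of their arrays, 6.17 and 6.15, so these folds are close to the limit that the arrays could show. Within the RIG-I family, the differences of Dhx58 exceeded those of Ddx58 and Ifih1 under both labels.

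DDX60 is an interferon-induced helicase that has been described as a helper of RIG-I. Ddx60 was at 5.74 and 5.67 in Zip7 KO, both below the floor, against 7.13 and 7.35 in control. With the floor in place of the Zip7 KO values it was at least 1.95-fold lower under Lgr5-Hi and at least 2.29-fold lower under Lgr5-Med. The deposited values themselves differed by -1.40 and -1.68.

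ZBP1 binds nucleic acid in its left-handed Z form and can start necroptosis, an inflammatory form of cell death, through RIPK3 and MLKL. Zbp1 was at 7.29 and 6.93 in Zip7 KO, against 8.71 and 8.72 in control. The differences were -1.42 (2.68-fold) and -1.80 (3.47-fold). It ranked 12 from the lowest under both labels, of 12017 and of 12257 genes, and its difference under Lgr5-Hi was the farthest below 0 among the members above the floor on both arrays.

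**Figure D2:**
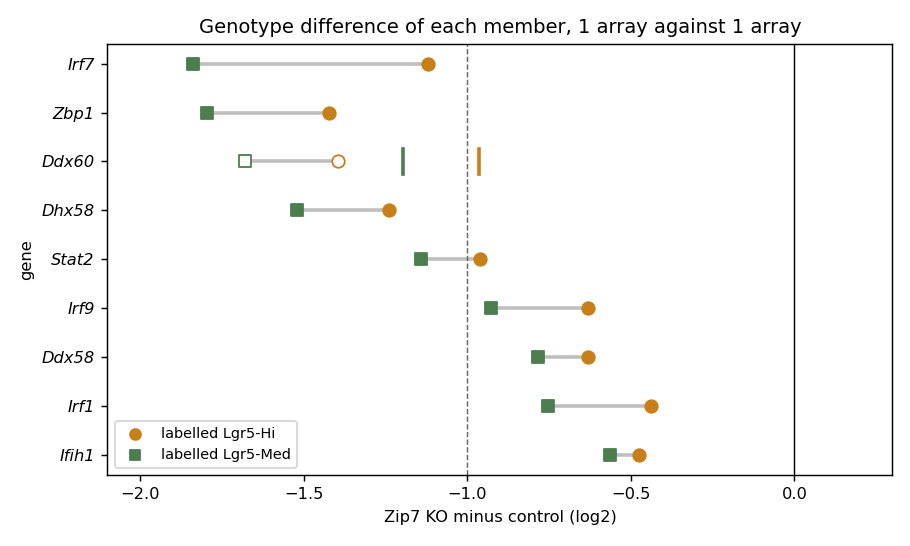
Zip7 KO minus control on the log2 scale (horizontal axis) for each gene (vertical axis), with a circle for the arrays labelled Lgr5-Hi and a square for those labelled Lgr5-Med; open symbols have a Zip7 KO value below the floor, and the upright bar in the same colour is the difference with the floor in its place. The dashed line is 2-fold lower, and every symbol is left of 0, from -0.44 for Irf1 to -1.84 for Irf7.

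The next question was whether the genotype difference depended on the fraction label. All 9 genes differed more under the Lgr5-Med label, whose arrays had the higher values of Lgr5 itself in both genotypes. Subtracting the Lgr5-Med difference from the Lgr5-Hi difference gave a value above 0 for 9 of 9, from 0.09 for Ifih1 to 0.72 for Irf7, with a median of 0.28. Over all 11848 genes compared in both it was above 0 for 60.5%, with a median of 0.06. The sign of Ifih1 turned after quantile normalisation (-0.0010), after centring on epithelial markers (-0.01) and after removal of a loess trend (-0.03). The others kept theirs under the alternatives tried.

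Between the fractions of 1 genotype the genes differed little. In Zip7 KO, arrays labelled Lgr5-Hi minus Lgr5-Med, 7 of the 8 members above the floor were higher under Lgr5-Hi, against 49.3% of all genes. The members had a median of 0.24 and a range from -0.05 for Ddx58 to 0.94 for Irf7. Ddx60 was below the floor on both arrays. In control, 4 of 9 were higher under Lgr5-Hi, close to the 43.3% of all genes that were. The members had a median of -0.01 there and a range from -0.21 for Ddx60 to 0.22 for Irf7. No member passed 2-fold in either direction in Zip7 KO, where 2.62% of all genes did, nor in control, where 1.19% did. The control arrays thus held these genes at nearly the same level in both fractions, although Lgr5 was at 7.79 in the array labelled Lgr5-Hi and 10.97 in that labelled Lgr5-Med. These comparisons share arrays with the genotype comparisons above and are not independent of them.

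The members were then set beside the rest of the pathway, list by list. Among the interferons themselves, 16 of 21 listed genes had a probe set of their own and 4 were above the floor in each comparison. None of these 4 was past 2-fold. Ifnb1, the classical type I interferon, was between 4.53 and 4.69 on all arrays, below the floor. Ifnl2, a type III interferon, was at 8.02 and 8.38 in Zip7 KO and at 8.31 and 8.16 in control, with no common direction. Ifna16 had the highest difference under Lgr5-Hi (0.10, or 0.04 with the floor in place of its control value) and the lowest under Lgr5-Med (-0.14), and Ifnz, a type I interferon-like gene, had the highest under Lgr5-Med, at 0.43. The medians were -0.04 and 0.20.

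The receptors and their kinases were measured well, with 9 of 9 above the floor on all arrays and 0 past 2-fold. Their medians were 0.09 under Lgr5-Hi, with 3 below 0 (against 45.0% of all genes), and -0.06 under Lgr5-Med, with 8 below 0 (against 55.8%). Ifngr1, a chain of the interferon-gamma receptor, was highest at 0.36 and 0.22, and Tyk2, a kinase of the type I receptor, lowest at -0.16 and -0.44.

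Of the other STAT and IRF genes 8 were compared and 0 passed 2-fold, with medians of 0.09 and -0.08. Irf8, a factor best known from myeloid and B cells, had the lowest differences, -0.55 and -0.71. Irf3, which the sensors activate directly and which is not known as an interferon-induced gene, was at 0.21 and -0.09. Irf5 had the highest difference under Lgr5-Med, at 0.14.

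The other nucleic acid sensors numbered 16 compared, with 0 past 2-fold and medians of 0.03 and -0.03. The lowest was Adar, an RNA editing enzyme with an interferon-induced isoform, at -0.52 and -0.73. The highest was the helicase Dhx36, at 0.45 and 0.28. The adaptors and kinases below the sensors likewise had 0 of 14 past 2-fold, with medians of 0.01 and -0.13. Among them Trim25, a ubiquitin ligase that acts on RIG-I, was at -0.55 and -0.52. Ticam1, the adaptor of TLR3, was at 0.69 under Lgr5-Hi and -0.15 under Lgr5-Med, and Tank, a partner of the kinase TBK1, at 0.40 and 0.44.

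Of the negative regulators 16 were compared and 1 passed 2-fold, the same gene in both comparisons. This was Usp18, an interferon-induced protease that removes ISG15 and blocks the type I receptor. It stood at 6.84 and 6.13 in Zip7 KO, the second below the floor, against 8.11 and 8.10 in control, a difference of -1.27 and one of -1.95 or lower. The medians of this list were -0.15 and -0.10, and its highest members were Cyld at 0.49 under Lgr5-Hi and Rnaseh2b at 0.26 under Lgr5-Med. Of 5 listed partners of ZBP1 in cell death, 4 had a probe set of their own. These had 0 past 2-fold and medians of -0.03 and -0.12. Mlkl, the executor of necroptosis, was lowest at -0.39 and -0.62, while the kinase Ripk3 was at 0.12 and -0.12 and the adaptor Fadd at -0.01 and 0.09.

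Further down, the antiviral effector genes were lower in 20 of 20 cases under each label, against 45.0% and 55.8% of all genes. Of these effectors 10 and 14 were at least 2-fold lower, with list medians of -1.05 and -1.21. All 20 were above the floor in control, but only 14 and 15 of them in Zip7 KO. The rest entered through their control value alone, which nearly fixed their direction. With the floor in place, Herc6 was at -0.87 under Lgr5-Hi and no longer 2-fold lower. Oas2, which makes the activator of RNase L, was at -1.94 under Lgr5-Hi, and Rtp4, whose Zip7 KO value lay under the floor, was at -2.02 or lower under Lgr5-Med. At the other end were Bst2, a tether of virus particles, at -0.43 under Lgr5-Hi and the antiviral membrane protein Ifitm3 at -0.10 under Lgr5-Med. The targets of interferon-gamma and IRF1 were lower as deposited in 10 of 10 and 12 of 12 cases, with 0 and 2 of them past 2-fold. Their medians were -0.57 and -0.60. The peptide transporter gene Tap1 was at -1.43 under Lgr5-Med and the GTPase gene Irgm1 at -0.99 under Lgr5-Hi. At the other end, as deposited, were Psmb10 at -0.21 under Lgr5-Hi and Cxcl9 at -0.01 under Lgr5-Med. Gbp3 was compared under Lgr5-Med through its control value alone. With the floor in place it was at 0.03, no longer lower and above Cxcl9. Among the pathway lists, the medians of the members thus lay nearest to those of the antiviral effectors, followed by the targets of interferon-gamma and IRF1. Such medians were not particular to pathway lists, since those of the T and NK cell markers, described below, were -1.07 and -0.96. Members and lists were chosen with earlier results of these data known, and the lists of other factors and other sensors leave the members out. The choice may therefore have set part of this order. Whether these lists differ from one another was not tested.

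**Figure D3:**
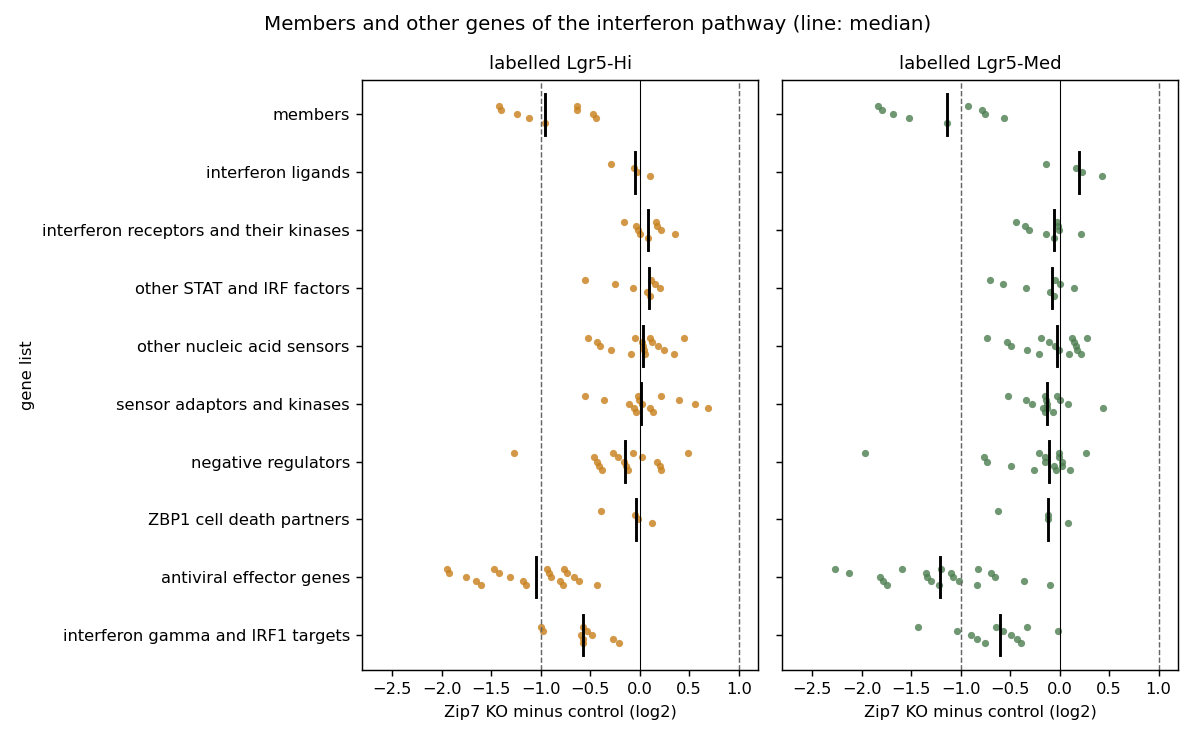
Zip7 KO minus control on the log2 scale (horizontal axes) for the genes of each pathway list (vertical axis), 1 point per gene that exceeded the floor on either array, with the arrays labelled Lgr5-Hi on the left and Lgr5-Med on the right. Black lines are list medians and dashed lines 2-fold; the members, at -0.96 and -1.14, and the antiviral effectors, at -1.05 and -1.21, have the lowest medians, and the receptors, at 0.09 and -0.06, lie around 0.

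The genes whose pattern over the 4 arrays was most like the members' mean were found by the distance between values centred on each gene's own mean, among 12417 other genes. The 10 nearest were Rsad2 (viperin, an antiviral enzyme) at a distance of 0.02, Oasl1 at 0.10, Parp12 at 0.11, Ifi27l2b at 0.13, Parp14 and Oas3 at 0.17, Ceacam20 at 0.17, Ifi27 and the T cell receptor gamma segment Trgv1 at 0.18, and Sulf2 at 0.20. Taken singly, Stat2 was nearest to Rsad2, Irf1 to Xdh, Irf9 to Cmpk2, Zbp1 to Sp100, Ddx58 to Slfn2, Ifih1 to Tap2, Dhx58 to Oas3 and Ddx60 to Herc6, at distances from 0.04 for Tap2 to 0.17 for Oas3. Irf7 had no neighbour as close. Its nearest gene, at 0.22, was Fabp6, the ileal bile acid binding protein, with differences of -0.83 and -1.77. Oas3 was above the floor on 3 arrays, Herc6 on 2 and Trgv1 on 1, so their distances rest in part on background values. The likeness rests on 4 arrays and is a description.

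Markers of T and NK cells and of Paneth cells were lower along with the members under both labels, and those of enterocytes under Lgr5-Med. Intraepithelial lymphocytes are known to lie between the cells of the epithelium. T and NK cell markers were lower in Zip7 KO in 9 of 9 cases under Lgr5-Hi and 11 of 11 under Lgr5-Med, against 45.0% and 55.8% of all genes. Of these markers 5 were at least 2-fold lower in each, with list medians of -1.07 and -0.96. The mean log2 level of all 15 T and NK cell markers with a probe set, 4 of them below the floor on every array, was 6.22 and 6.33 in Zip7 KO and 6.90 and 7.19 in control. Gzmb, a granzyme of cytotoxic cells, was at 6.86 and 6.61 in Zip7 KO, against 8.33 and 9.16 in control, and the defining T cell gene Cd3e at 6.98 and 6.87, against 7.57 and 7.80. The marker of all leukocytes Ptprc (CD45) was below the floor in Zip7 KO, at 5.96 and 6.04, against 6.44 and 6.53 in control. Its difference under Lgr5-Hi was -0.48 as deposited and -0.27 with the floor in place, and that of Itgae under Lgr5-Med was -0.27 as deposited and -0.23 with the floor in place. These were the list's differences nearest to 0 as deposited, and with the floor in place Cd8b1 was nearer under Lgr5-Med, at -0.16. On the 2 control arrays 9 and 11 of the 15 markers with a probe set were above the floor, and on both Zip7 KO arrays 7. The rest of those compared entered through their control value alone, which nearly fixed their direction. The part of these cells in the members' differences was not tested.

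Paneth cell markers were lower as well, with 8 of 9 below 0 and 2 at least 2-fold lower under Lgr5-Hi and 9 of 9 below 0 and 6 at least 2-fold lower under Lgr5-Med, and medians of -0.74 and -1.47. The protease Mmp7 was at -1.55 under Lgr5-Hi and the lectin Reg3g at -2.03 under Lgr5-Med, while Nupr1 was at 0.68 and -0.23. Their part was not tested either. Enterocyte markers were below 0 in 7 of 13 cases under Lgr5-Hi, against 45.0% of all genes, and in 13 of 13 under Lgr5-Med, against 55.8%. Of these markers 0 passed 2-fold, and their part was not tested. They had medians of -0.03 and -0.50, from Fabp1 at -0.21 to Sis at 0.36 under Lgr5-Hi and from Slc51b at -0.93 to Fabp2 at -0.09 under Lgr5-Med. Epithelial markers had medians of 0.04 and -0.01, from Cdx2 at -0.33 to Krt19 at 0.18 under Lgr5-Hi and from Cldn3 at -0.43 to Krt18 at 0.07 under Lgr5-Med. Stem cell markers had medians of -0.16 and -0.06, with Msi1 at -0.44 under Lgr5-Hi, Rnf43 at -0.20 under Lgr5-Med and Gkn3 at 0.35 and 0.61.

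Few markers of other immune or supporting cells were detected. Of the myeloid and dendritic markers 5 and 6 of 12 were compared, with medians of -0.13 and -0.17. Tyrobp was at -0.30 and Cd68 at 0.23 under Lgr5-Hi, and S100a9 at 0.20 under Lgr5-Med, with the floor in place of 1 value of Tyrobp and of S100a9. Fcer1g, with the floor for its Zip7 KO value, stood at -0.59 or below under Lgr5-Med. Siglech, which marks the plasmacytoid dendritic cells known for their interferon output, and Csf1r, which marks macrophages, were below the floor on all 4 arrays. The plasmacytoid list as a whole had medians of -0.15 and -0.07, with Bst2 lowest in both, Tcf4 at 0.18 under Lgr5-Hi and Spib at 0.39 under Lgr5-Med. The B and plasma cell list had medians of -0.02 and -0.06, with Cd79b at -0.10 and -0.16, Pax5 at 0.05 (also with the floor in place of its control value) under Lgr5-Hi and Mzb1 at -0.04 under Lgr5-Med. The stromal and endothelial list had medians of -0.18 and 0.07, with Pdgfrb at -0.28 and -0.19, Col1a2 at -0.05 under Lgr5-Hi and Col3a1 at 0.13 under Lgr5-Med. No red blood cell marker entered a comparison.

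**Figure D4:**
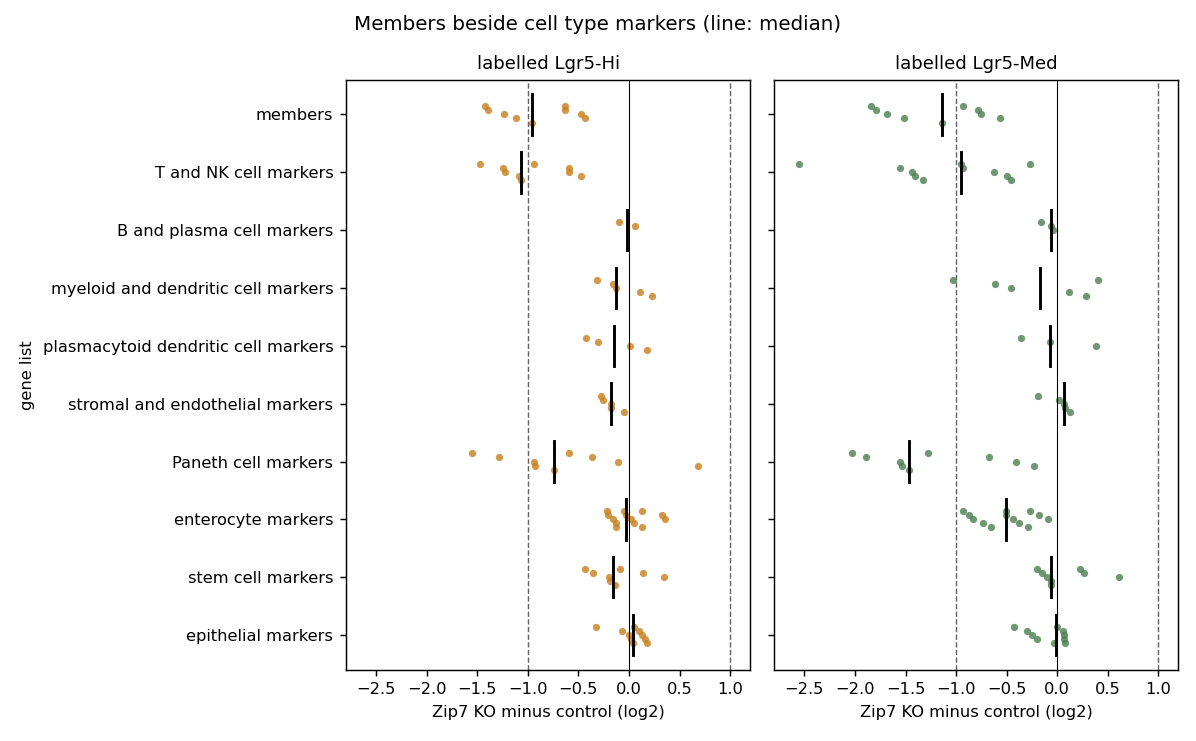
Zip7 KO minus control on the log2 scale (horizontal axes) for the members and for markers of each cell type (vertical axis), 1 point per gene that exceeded the floor on either array, with the arrays labelled Lgr5-Hi on the left and Lgr5-Med on the right. Black lines are list medians and dashed lines 2-fold; besides the members, the T and NK cell markers (-1.07 and -0.96) and the Paneth cell markers (-0.74 and -1.47) have the lowest medians, and the epithelial markers (0.04 and -0.01) lie at 0.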

How the data were processed

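RNA of 4 sorted populations was hybridised to 1 Affymetrix array each. The authors deposited RMA values, per the submitters' processing notes, which are on the log2 scale judging by their range. The software, its version, the build and which arrays were normalised as a set are not stated there. The values ran from 3.08 to 14.6. The platform annotation gave 21789 of 35557 probe sets a single symbol (used), 1621 several and 12147 none. Genes took their probe set with the highest mean (999 genes had several). The floor was percentile 95 of 1203 odorant, pheromone and trace amine receptor genes per array, which were left out of all counts. Where 1 value lay at or below the floor, the floor replaced it for a named gene, while counts and medians used deposited values.

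There were 4 comparisons of 1 array against 1 array, with no test. Precision is limited by the number of arrays. Genes were counted past 2-fold. The 9 pathway lists cover interferon ligands, receptors and kinases, other STAT and IRF factors, other sensors, adaptors, negative regulators, ZBP1 partners, antiviral effectors and interferon-gamma targets, and 10 more lists cover cell type markers. The members and lists were chosen with earlier results of these data known. Named were the members, the lowest and highest gene of each list under each label, the nearest genes by pattern (10 for the mean, 1 per member), the sex-linked genes and Slc39a7. Other genes (Lgr5, Ifnb1, Cd3e, Cd8b1, Siglech and Csf1r) were named after their values were seen. The code was tested on simulated data. Python 3.11.15, numpy 2.4.6, pandas 2.3.3 and statsmodels 0.14.6 were used. Promoter windows are from RefSeq, GRCm38.p6. The alternatives were other scalings, floors, probe set rules and sizes of call.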

Additional observations from a re-analysis of the deposited data

Results flagged for a closer look

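For 3 members the fraction difference (labelled Lgr5-Hi minus Lgr5-Med) was above 0 in Zip7 KO and below 0 in control, and the difference between the 2 was 0.30 for Irf9, 0.37 for Zbp1 and 0.28 for Dhx58. The control differences themselves were near 0, at -0.08, -0.01 and -0.04, and their signs are not settled. That of Zbp1 was above 0 after quantile normalisation (0.0415) and with the loess trend removed (0.0712), and that of Dhx58 with the loess trend removed (0.0349), where that of Irf9 was -0.0039. For 5 pathway lists the median genotype difference had opposite signs under the 2 fraction labels. Subtracting the Lgr5-Med median from the Lgr5-Hi median gave -0.24 for the interferon ligands, 0.15 for the receptors and their kinases, 0.17 for the other STAT and IRF factors, 0.0635 for the other nucleic acid sensors and 0.14 for the sensor adaptors and kinases. The median over all genes also had opposite signs, 0.0218 under Lgr5-Hi and -0.0262 under Lgr5-Med, and over all genes the median of the difference between the labels was 0.0568, close to that of the other sensors. None of these differences was tested, and each rests on 1 array a group.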

How the results depend on the processing

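The genotype differences of the 9 members were below 0 in all 162 recomputed values under the alternatives, and 1 of them moved by over 1.5 times, that of Irf1 under Lgr5-Med with the mean of its probe sets. With a call at 1.5-fold in place of 2-fold, 7 members were lower under Lgr5-Hi, 8 under Lgr5-Med, and 1, Irf7, was higher in the array labelled Lgr5-Hi than in that labelled Lgr5-Med in Zip7 KO. The call at 1.5-fold also raised the counts over all genes, to 111 lower and 130 higher under Lgr5-Hi and to 257 lower and 52 higher under Lgr5-Med, and between fractions to 431 lower and 715 higher in Zip7 KO and 385 lower and 282 higher in control. The median fraction difference of the members in control, -0.01 as reported, was 0.0415 after quantile normalisation, -0.0299 with arrays centred on their medians, -0.0343 with arrays centred on the epithelial markers and 0.0529 with the loess trend removed, so it has no settled sign. With arrays centred on the epithelial markers the median fraction difference in Zip7 KO was 0.12, where that of all genes was -0.12 in place of -0.0045, and the median difference between the genotype differences was 0.19. Raising values at or below the floor to the floor, chosen after seeing the data, left 3 members at least 2-fold lower under Lgr5-Hi. Floors at percentiles 90 and 99, no floor and the other scalings left the member counts past 2-fold within 1.5 times of those reported. The signal over background limits Ddx60 and Dhx58, which were at or near the floor in Zip7 KO. No paired analysis was possible because each group has 1 array.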
